A study of Rattus norvegicus with 3 samples.

Results

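Glutathione and electrophile defence genes were followed in the thoracic aorta of Sprague Dawley rats given allylamine. The 10 genes were Gstm1, Gstm2, Gstm7, Gsta4, Gstk1 and Mgst2, which encode glutathione transferases, Gclc and Gss, which encode enzymes of glutathione synthesis, and the stress-induced enzymes Nqo1 and Hmox1. A gene's probe sets were those whose platform annotation gave its symbol and no other. This gave 18 probe sets of the 8740 that were not array controls, and 10 of the 4736 genes named in this way. Dosing went on for 20 days in 3 groups: a control given 1 ml/kg of water, a low-dose group given 35 mg/kg of allylamine and a high-dose group given 70 mg/kg. Each group had 1 array of total RNA. The sources used here do not give the sex and age of the rats, the route of dosing, or whether an array held RNA of 1 rat or of a pool. With 1 array per group no difference has a replicate check and no test was made. In whole aorta, fewer cells of a type and less RNA per cell cannot be told apart.

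Allylamine is oxidised by a semicarbazide-sensitive amine oxidase that is abundant in vascular smooth muscle, and one product is the reactive aldehyde acrolein. Acrolein binds thiols, and cells remove it chiefly by conjugation to glutathione, a reaction that glutathione transferases speed up. Glutathione is made in consecutive steps by glutamate-cysteine ligase, whose catalytic subunit is Gclc, and by the synthetase Gss. Many of these genes, Nqo1 and Hmox1 among them, are induced when electrophiles modify KEAP1 and release the transcription factor NRF2, which binds antioxidant response elements in DNA.

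Of the transferase genes, Gstm1, Gstm2 and Gstm7 lie in a cluster of 9 mu-class genes on rat chromosome 2, of which Gstm5 was the only other gene with probe sets of its own here. Because members of this cluster differed in direction, and Nqo1 is the standard target of NRF2, the 250 bases before the RefSeq start site of these genes are shown, 5′ to 3′ on the gene's strand, from assembly GRCr8. RefSeq windows were found for 8 of the 10 members, all but Mgst2 and Hmox1. The Gstm1 sequence is chr2:198343384-198343633, the Gstm2 sequence chr2:198316918-198317167, the Gstm7 sequence chr2:198260320-198260569 and the Nqo1 sequence chr19:52220268-52220517, all on the minus strand. Capitals mark strings that match the core of the antioxidant response element, TGACNNNGC, or the TATA box, TATAAA, each searched on both strands. They were marked by their letters alone, whatever their distance from the start, and their function was not tested.
Gstm1: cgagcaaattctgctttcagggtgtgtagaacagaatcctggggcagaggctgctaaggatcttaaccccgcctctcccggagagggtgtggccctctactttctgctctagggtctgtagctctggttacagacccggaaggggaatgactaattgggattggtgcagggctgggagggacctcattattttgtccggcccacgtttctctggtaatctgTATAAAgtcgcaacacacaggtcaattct
Gstm2: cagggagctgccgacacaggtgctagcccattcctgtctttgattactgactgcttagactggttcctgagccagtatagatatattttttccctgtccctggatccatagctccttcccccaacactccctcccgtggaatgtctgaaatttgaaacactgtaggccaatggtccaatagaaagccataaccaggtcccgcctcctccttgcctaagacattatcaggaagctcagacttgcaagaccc
Gstm7: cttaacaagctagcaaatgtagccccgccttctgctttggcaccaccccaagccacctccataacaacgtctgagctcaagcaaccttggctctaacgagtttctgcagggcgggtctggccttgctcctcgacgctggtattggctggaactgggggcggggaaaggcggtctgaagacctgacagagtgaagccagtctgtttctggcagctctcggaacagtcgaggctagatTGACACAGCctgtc
Nqo1: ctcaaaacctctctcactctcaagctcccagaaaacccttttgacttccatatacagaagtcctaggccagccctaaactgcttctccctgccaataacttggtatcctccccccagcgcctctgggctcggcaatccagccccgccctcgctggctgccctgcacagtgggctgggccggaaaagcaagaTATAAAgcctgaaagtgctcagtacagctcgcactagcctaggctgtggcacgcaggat
The core TGACNNNGC was in the window of 250 bases before and 50 after the start in 1 of the 8 members, Gstm7, where it began 14 bases before the start, and in 12.1% of all 33469 windows. TATAAA was in 3 of the 8, beginning 29 bases before the start in Gstm1, 59 in Nqo1 and 244 in Gclc, and in 14.2% of all windows. The searched strings did not overlap, and these matches describe letters in the windows only. Sequence further from the start was not searched, so a gene without a match may have one there.

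Near-identical copies are a known feature of mu-class genes. The first 13 coding bases that the windows of all 3 genes hold are shown from the start codon, in capitals, at chr2:198343334-198343346 for Gstm1, chr2:198316872-198316884 for Gstm2 and chr2:198260289-198260301 for Gstm7, all on the minus strand.
Gstm1: ATGcctatgatac
Gstm2: ATGcctatgacac
Gstm7: ATGcccatgacac
Gstm2 differed from Gstm1 at 1 of these 13 bases, and Gstm7 differed from Gstm1 at 2 and from Gstm2 at 1. The rest of the coding sequence and the sequences of the probes were not examined. All 6 probe sets of these genes carry the suffix that the array maker used for probe sets matching several related transcripts. Their values are therefore uncertain as measures of a single gene, and the part of shared hybridisation in them was not tested.

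The deposited intensities were scaled so that the arrays had the same median, and scaled values under their 40th percentile, an intensity of 188, were treated as below a floor. Probe sets above this floor on both arrays of a comparison are called measured. Each gene is given by its log2 difference, dose minus control or high minus low dose, taken as the median where several probe sets were measured, and 2-fold means a log2 difference of 1. Of the 18 probe sets, 11 lay above the floor on all 3 arrays, 6 on some of them and 1, of Nqo1, on none. The median over member probe sets was a scaled intensity of 325 in the control, 378 at the low dose and 1009 at the high dose. The median percentile among all probe sets on the array was 55.7, 60.0 and 83.7, in that order. These medians count several probe sets of the same gene, need not fall on the same probe sets on each array, and are not a change of the genes. By gene, the median difference of the measured members at the high dose against control was 0.19.

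The arrays also differed outside the members. For the 9 probe sets of bacterial and phage transcripts added at hybridisation, the median ratio to the control array was 3.81 at the low dose and 28.8 at the high dose. The 3′ over 5′ ratio of the cytoskeletal actin probe sets was 0.376 in the control, 0.542 at the low dose and 1.42 at the high dose. Of 398 genes with exactly 2 measured probe sets, 46.5% had them on opposite sides of 0 at the high dose against control, and of 458 such genes 44.3% did at the low dose. The pooled SD of log2 differences between probe sets of the same gene was 1.40 at the high dose and 1.08 at the low dose. These probe sets share the arrays and the RNA, so this SD measures their disagreement and not the spread between repeated arrays. Of 8 smooth muscle markers 5 were on the array, and by the brightest probe set of each gene all 5 lay above the floor in the control and 4 at each dose. Their summed scaled intensity was 3562 in the control, 2718 at the low dose and 5152 at the high dose. The 5 fibroblast markers summed to 25315, 65581 and 26658 on the same arrays, and the 4 cardiac muscle markers, with Tnni3 below the floor throughout, to 1651, 9494 and 8535. The 5 endothelial markers summed to 2157 in the control, 4566 at the low dose and 3584 at the high dose, the 6 adipocyte markers (Cfd below the floor throughout) to 2492, 6132 and 4202, and the 4 macrophage markers (Csf1r and Itgam below it) to 2562, 1782 and 1897. The 5 skeletal muscle markers summed to 2444, 2634 and 1864 and the 4 hepatocyte markers to 3428, 4326 and 2229.6 on these arrays. These sums include values below the floor. In the same order, 4, 2 and 2 skeletal muscle markers and 4, 4 and 3 hepatocyte markers lay above it. For adipocyte markers the counts were 3, 4 and 5, and for macrophage markers 2, 1 and 2. On each array 5 fibroblast, 4 endothelial and 3 cardiac muscle markers lay above the floor. The part of these differences in the members' values was not tested.

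**Figure D1:**
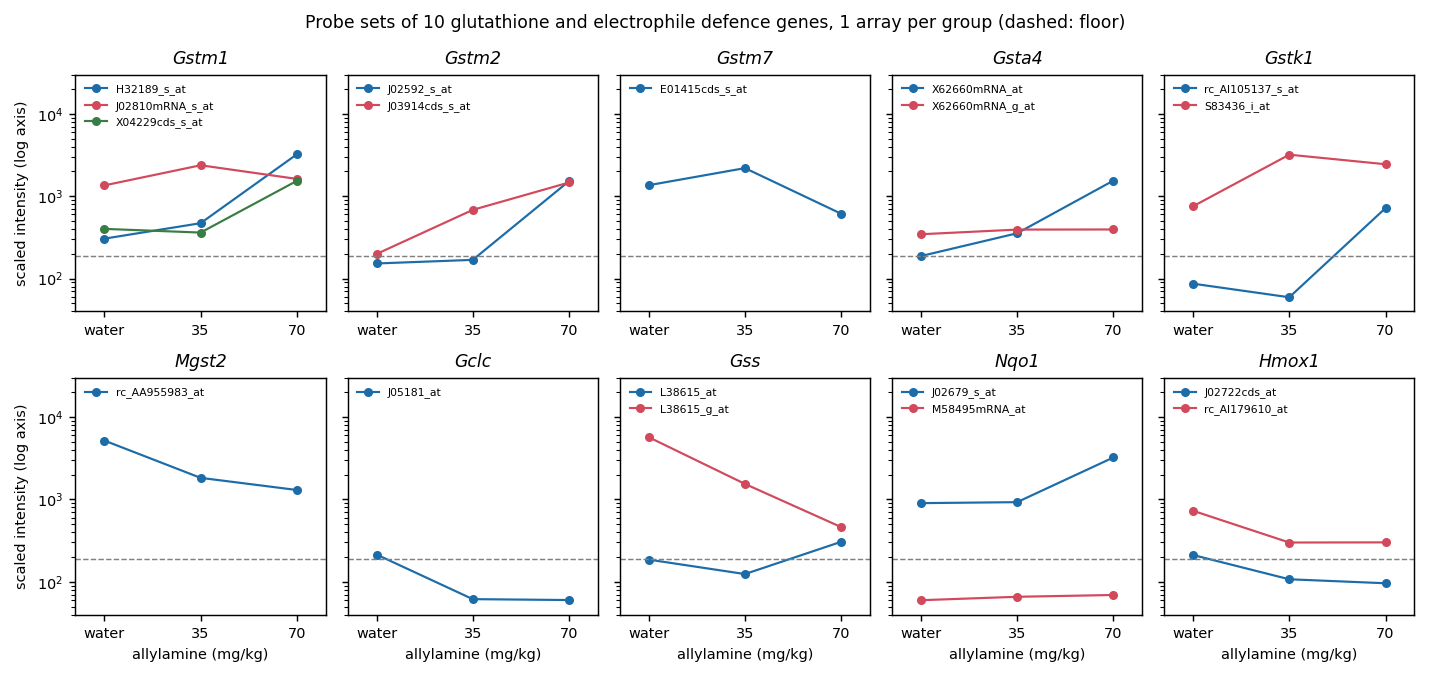
Scaled intensity (log axis) of each probe set of the 10 genes on the control (water), 35 and 70 mg/kg arrays, 1 line per probe set, with the floor of 188 dashed. Gstm2 and 2 of the 3 Gstm1 probe sets stand highest at the high dose, while Mgst2 and the brighter Gss probe set are highest in the control.

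At the high dose against control, Gstm1, Gstm2, Gstk1 and Nqo1 were at least 2-fold higher and Gstm7, Mgst2, Gss and Hmox1 at least 2-fold lower, so 8 of the 9 measured members lay past 2-fold. The same was true of 42.9% of all 2462 genes measured in this comparison, 19.7% higher and 23.2% lower. Gsta4 lay within 2-fold, and Gclc was above the floor in the control only. The median difference of the 9 members was 0.19, against -0.06 over all genes, and their median absolute difference was 1.84, against 0.84. Over the 8 alternatives the members' median ran from -1.63 to 1.62 and the count of higher members from 0 to 5. With the floor at the 5th percentile 5 of 10 members were higher, beside 1074 of 4448 genes. At the 25th percentile it was 5 of 9, beside 712 of 3344 genes. Without less specific probe sets 2 members were measured, both lower, beside 351 genes higher and 479 lower of 1913. The Gsta4 probe set that remained then was a bound, at least 8.2-fold higher. The members were chosen with earlier results of these arrays known, and the counts are a description. At the low dose against control, 2 of 9 members were at least 2-fold higher (Gstm2 and Gstk1) and 3 lower (Mgst2, Gss and Hmox1), beside 33.1% of 2606 genes past 2-fold, 16.8% higher and 16.3% lower. Both doses were set against the same control array, so these comparisons are not independent.

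The mu-class transferases conjugate glutathione to many electrophiles. Gstm2 had the largest positive difference of the member genes at the high dose. Its probe set J03914cds_s_at had a scaled intensity of 199 in the control, 682 at the low dose and 1467 at the high dose, a log2 difference from control of 1.78 at the lower dose and 2.88 at the higher. The control value lay just above the floor, at the 41.3rd percentile of the array, and the high-dose value at the 92.8th. The other Gstm2 probe set, J02592_s_at, had 152.5 in the control and 169 at the low dose, both below the floor, and 1525 at the high dose, at least 8.09-fold higher than control. Both Gstm2 probe sets were thus brightest at the high dose, and at the low dose 1 of them was above the floor. With the floor at the 5th or 25th percentile, which let in the dimmer probe set, the difference at the low dose was 0.96.

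Gstm1 was measured by 3 probe sets on all arrays. H32189_s_at had scaled intensities of 305 in the control, 470.4 at the low dose and 3225 at the high dose. X04229cds_s_at had 401, 362 and 1535 on the same arrays, and J02810mRNA_s_at had 1353, 2375 and 1621. The brightest of the 3 in the control was thus the one that was highest at the low dose, and the dimmer pair was highest at the high dose. Their log2 differences at the high dose against control were 3.40, 1.94 and 0.26, with a median of 1.94 for the gene, and at the low dose they were 0.62, -0.15 and 0.81, with a median of 0.62. The difference of 1.94 was 0.26 when the brightest probe set stood for the gene.

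Gstm7, between Gstm5 and Gstm2 in the cluster, went the other way at the high dose. Its only probe set, E01415cds_s_at, had scaled intensities of 1360 in the control, 2193 at the low dose and 612 at the high dose. It was higher than control by 0.69 at the low dose and differed by -1.15 at the high dose, or -0.99 with arrays scaled to a common trimmed mean. Gstm7 was thus brightest at the low dose and dimmest at the high dose. Both Gstm5 probe sets were below the floor throughout, at 71.3 to 188.1.

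Gsta4, an alpha-class transferase, conjugates the lipid aldehyde 4-hydroxynonenal. Both of its probe sets were designed from 1 accession. X62660mRNA_g_at had scaled intensities of 345 in the control, 393 at the low dose and 395 at the high dose, a difference of 0.19 at either dose. X62660mRNA_at had 187.5 in the control, just under the floor of 188, 355 at the low dose and 1545 at the high dose, which is at least 1.88-fold and 8.2-fold higher than control. Of these probe sets from the same sequence, the first was level across the arrays and the other was brightest at the high dose. With values below the floor raised to it, they differed by 2.84 on the log2 scale at the high dose against control, larger than the median of 1.40 over 563 such pairs on the array, and 76 pairs differed more. With the floor at the 5th or 25th percentile both probe sets counted, and the Gsta4 difference at the high dose was 1.62.

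Gstk1, the kappa-class transferase of mitochondria and peroxisomes, was higher at both doses by its brighter probe set. S83436_i_at had scaled intensities of 754 in the control, 3192 at the low dose and 2444 at the high dose, differences from control of 2.08 and 1.70. Its other probe set, rc_AI105137_s_at, had 86.7 in the control and 59.3 at the low dose, below the floor, and 717 at the high dose, at least 3.81-fold higher than control. Both probe sets were thus higher at the high dose, while at the low dose 1 of them was. With a floor at the 5th percentile the difference at the low dose was 0.77.

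Mgst2 is a membrane-bound transferase that can also make leukotriene C4. Its only probe set, rc_AA955983_at, had scaled intensities of 5178 in the control, 1826 at the low dose and 1300.4 at the high dose. Its log2 difference from control was -1.50 at the low dose and -1.99 at the high dose. The other floors and choices of probe sets could not change these values, because its only probe set is bright and entered under each. Under the other scalings the difference at the high dose ran from -1.68 to -1.84. Even at the high dose the probe set lay at the 90.7th percentile of the array.

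**Figure D2:**
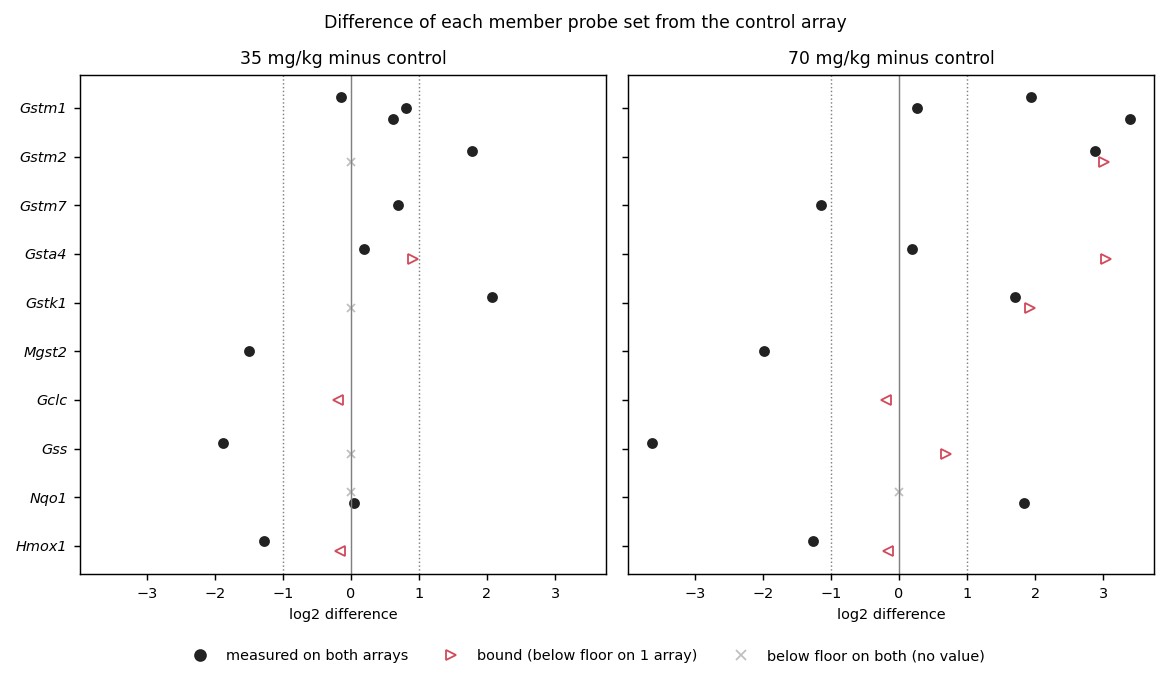
Log2 difference of every member probe set from the control array at the low dose (left) and the high dose (right), with dotted lines at 2-fold. Filled points were measured on both arrays, triangles are bounds for probe sets below the floor on 1 array, and grey crosses mark probe sets below it on both, which have no value. The Gstm1 points run from 0.26 to 3.40 at the high dose.

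Of the glutathione synthesis genes, Gss had the most negative gene difference of the members. Its probe set L38615_g_at had scaled intensities of 5691 in the control, 1541 at the low dose and 461 at the high dose, differences of -1.88 and -3.63. The other probe set from the same accession, L38615_at, had 186 in the control and 124 at the low dose, below the floor, and 306 at the high dose, at least 1.62-fold higher than control. The Gss probe sets therefore pointed in opposite directions at the high dose. With values raised to the floor they differed by 4.33 on the log2 scale, and 14 of 563 pairs of probe sets with the same accession differed more. With the floor at the 5th or 25th percentile the Gss difference at the high dose was -1.45.

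Gclc carries the rate-limiting step of glutathione synthesis. Its only probe set, J05181_at, had scaled intensities of 214 in the control, 61.5 at the low dose and 60.0 at the high dose. The control value was close to the floor and the others were below it, so the gene was at least 1.14-fold lower at either dose and no further size can be given. With a floor at the 5th percentile its differences were -1.80 at the low dose and -1.84 at the high dose.

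Nqo1 reduces quinones in a way that avoids semiquinone radicals and is a standard readout of NRF2 activity. J02679_s_at had scaled intensities of 901 in the control, 926 at the low dose and 3227 at the high dose. The low-dose and control arrays differed by 0.04, and the high-dose array was higher than control by 1.84 and higher than the low dose by 1.80. The other probe set, M58495mRNA_at, had 59.7, 65.7 and 69.1 on the same arrays, below the floor throughout. The Nqo1 increase at the high dose therefore rests on 1 probe set, and its difference ran from 1.03 to 2.36 over the alternatives.

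Hmox1 breaks down heme and, like Nqo1, is induced by electrophiles in many cells. It was lower at both doses. rc_AI179610_at had scaled intensities of 727 in the control, 299.5 at the low dose and 301 at the high dose, differences from control of -1.28 and -1.27. J02722cds_at had 211 in the control, close to the floor, 107 at the low dose and 95.9 at the high dose, at least 1.12-fold lower at either dose. Both Hmox1 probe sets were highest in the control, and the difference between the doses was 0.01 where it could be measured. Nqo1 and Hmox1 thus differed in direction at the high dose.

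Between the doses, 4 of 9 measured members were at least 2-fold higher and 2 lower, beside 35.3% of 2459 genes past 2-fold, 14.4% higher and 20.9% lower. Gstm1 was higher at the high than at the low dose by 2.09 (3 probe sets, -0.55 to 2.78), Nqo1 by 1.80, Gstm2 by 1.10 and Gsta4 by 1.06 (2 probe sets, 0.01 to 2.12). With its brightest probe set alone, Gstm1 differed by -0.55. Gstm7 differed by -1.84 and Gss by -1.74, while Mgst2 (-0.49), Gstk1 (-0.39, or 0.23 after quantile normalization) and Hmox1 (0.01) lay within 2-fold. With a floor at the 5th percentile Nqo1 was at 0.94, Gss at -0.22 and Gstk1 at 1.61. Gstm1, Nqo1, Gsta4 and Gstm7 were within 2-fold of control at the low dose, and Gstk1, Mgst2 and Hmox1 were already past it there. Gstm2 (1.78) and Gss (-1.88) were past 2-fold at the low dose and past it again between the doses. With a floor at the 5th percentile Gstk1 was at 0.77 and Gstm2 at 0.96 at the low dose against control.

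**Figure D3:**
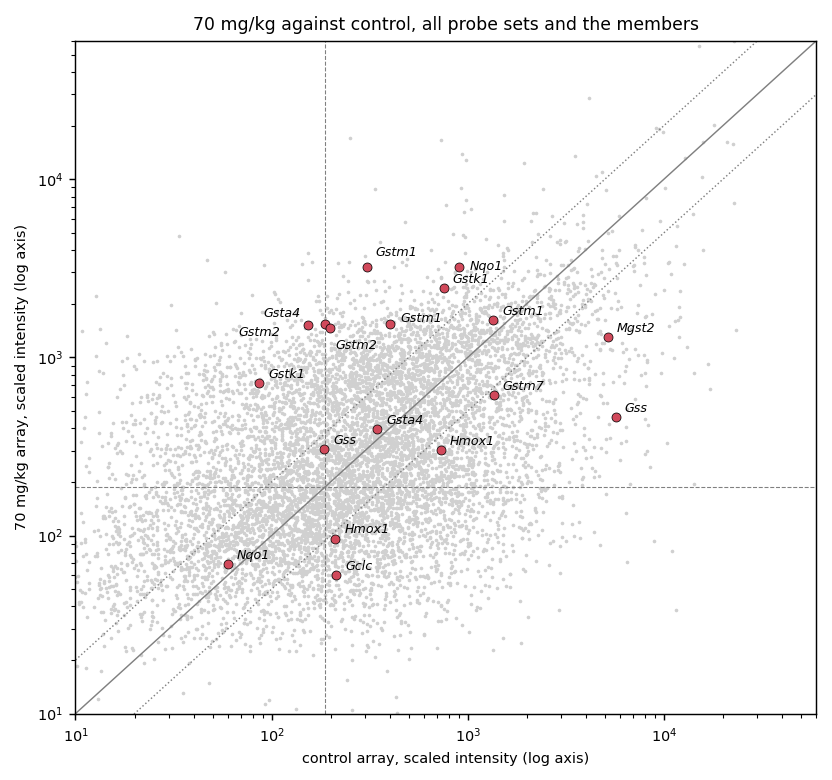
Scaled intensity on the high-dose array (vertical, log axis) against the control array (horizontal, log axis) for all probe sets in grey and the 18 member probe sets in red, with the line of equality, dotted lines at 2-fold and the floor dashed. 90 probe sets outside 10 to 60000 are not drawn. Mgst2, Gstm7 and the brighter Gss probe set lie below the line, while Nqo1 (901 in the control), all Gstm1 and both Gstm2 probe sets lie above it.

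The level in the control moved with direction over all probe sets. The control value sets the percentile and is also subtracted in the difference, so noise in it gives such a trend by itself. From the 5th to the 95th percentile the control array spanned 6.58 on the log2 scale and the high-dose array 5.22. Among the 1311 probe sets above the 85th percentile of the control array, 3.1% were at least 2-fold higher at the high dose and 58.5% at least 2-fold lower. The Mgst2, Gstm7 and brighter Gss probe sets and the Gstm1 probe set J02810mRNA_s_at belong here. Between the 70th and 85th percentile, 9.2% were higher and 45.7% lower, and here the Gstk1 and Nqo1 probe sets that were higher stand beside the Hmox1 probe set that was lower. Between the 40th and 55th percentile, 29.0% were at least 2-fold higher, and 4 member probe sets lie in this range. Of these the Gstm2 probe set J03914cds_s_at and the Gstm1 probe set H32189_s_at were higher at the high dose, while the Gclc probe set and the Hmox1 probe set J02722cds_at were below the floor there. Between the 55th and 70th percentile, 18.9% were higher and 24.0% lower, and here the Gsta4 probe set X62660mRNA_g_at was level and the Gstm1 probe set X04229cds_s_at higher. Values under the floor were raised to it for these shares, so a control value less than 2-fold above the floor cannot count as 2-fold lower. This holds for the range from the 40th to the 55th percentile and for part of the next. The Gsta4 probe set there, at 345 in the control, is 1 such value. The part of the control level in the members' differences was not tested. All measured members that were at least 2-fold higher at the high dose were so through probe sets whose suffix marks shared or incomplete probes (_s_at or _i_at). Without probe sets of this kind and those ending in _g_at, 2 members were measured, Mgst2 at -1.99 and Hmox1 at -1.27. Other probe sets without such a suffix gave bounds in both directions. X62660mRNA_at of Gsta4 was at least 8.2-fold higher and L38615_at of Gss at least 1.62-fold higher. The Gclc probe set was at least 1.14-fold lower and J02722cds_at of Hmox1 at least 1.12-fold lower.

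**Figure D4:**
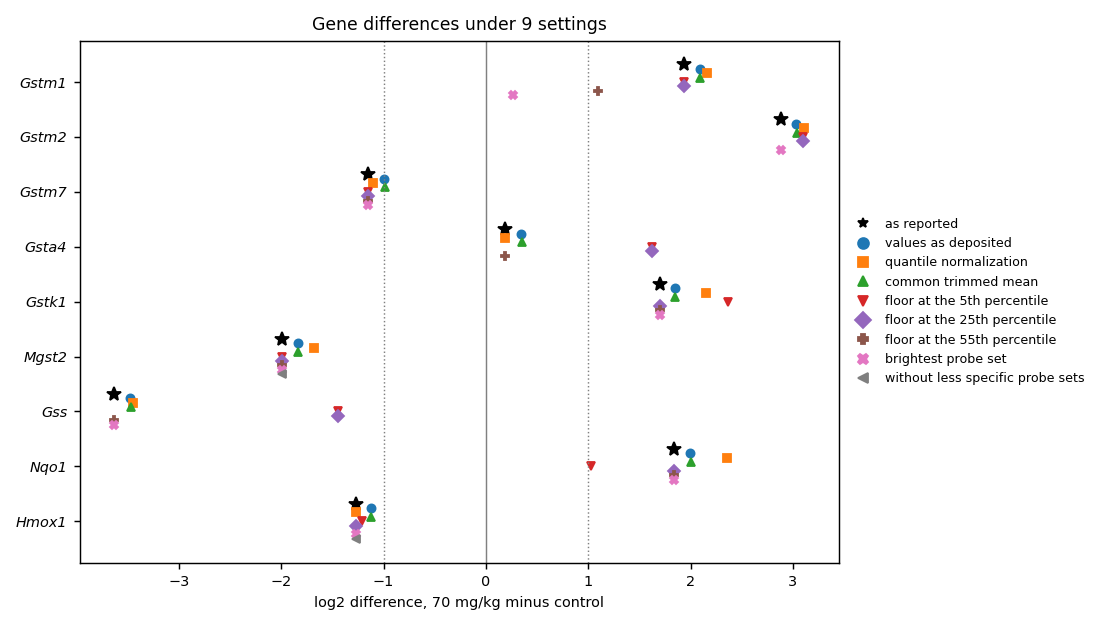
Log2 difference between the high dose and control for the 9 measured members under the reported setting (star) and 8 alternatives, with dotted lines at 2-fold. Gstm2, Gstk1 and Nqo1 stay right of the upper 2-fold line wherever they could be measured, and Gsta4, Gstm1 and Gss spread the most.

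Other genes of the pathway are set beside the 19.7% of all genes at least 2-fold higher and the 23.2% lower at the high dose. Of 19 further transferase genes, 10 were on the array and 4 were measured at the high dose against control, with 1 at least 2-fold higher, 2 lower and a median of -0.35. The microsomal transferase Mgst1 was higher by 1.63, with scaled intensities of 206 in the control, 331 at the low dose and 641 at the high dose. Its relative Mgst3 had 1578, 1005 and 515.5 on the same arrays, a difference of -1.61, and the theta-class Gstt1 differed by -1.01, or -0.85 with a common trimmed mean. The prostaglandin D synthase Hpgds differed by 0.30.

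Of 27 genes for the supply and use of glutathione, 21 were on the array and 12 measured at the high dose, with 3 higher, 4 lower and a median of -0.50. The homocysteine-forming hydrolase Ahcy was higher by 1.57. Glutathione reductase (Gsr), which regenerates glutathione from its oxidised form, differed by -1.58, or -0.84 with a floor at the 5th percentile, the glutathione peroxidase Gpx2 by -2.01 and the glycine carrier Slc6a9 by -1.48. Of 27 NRF2 regulators and targets, 14 were on the array and 7 measured, with 2 higher, 1 lower and a median of -0.07. The P450 reductase Por was higher by 2.50 (3 probe sets, 0.54 to 2.77) and the thioredoxin reductase Txnrd1 by 1.39, with 423 in the control, 356 at the low dose and 1106 at the high dose for its brightest probe set. With a floor at the 5th percentile Txnrd1 was at 0.90. In its brightest probe set Txnrd1 resembled Nqo1, level at the low dose and higher at the high dose. Transketolase (Tkt) differed by 0.52, and the carbonyl reductase Cbr1 by -1.59, but by 0.32 with the floor at the 5th or 25th percentile.

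Of 7 genes that export glutathione conjugates or belong to the same transporter group, 4 were on the array and only Abcc6 was measured at the high dose, at -2.95. Of 16 genes for heme and iron, 11 were on the array and 6 measured, with 1 higher, 2 lower and a median of -0.44. Haptoglobin (Hp), which binds free haemoglobin, differed by -2.62, the iron importer Slc11a2 by -2.21, or -0.43 with a floor at the 5th percentile, the erythroid heme synthesis enzyme Alas2 by 2.04 and ceruloplasmin (Cp) by 0.68. Of the 2 erythroid markers on the array, 1 was above the floor in the control and both at each dose, and they summed to a scaled intensity of 396.5 in the control, 610 at the low dose and 1870 at the high dose, with Alas2 itself 1 of them.

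At the low dose, 0 of 6 measured further transferases were at least 2-fold higher and 1 lower, 3 of 12 supply and use genes were higher and 1 lower, and 0 of 9 NRF2 genes were higher and 2 lower. Of 2 export genes 0 lay past 2-fold, and of 6 heme and iron genes 0 were higher and 1 lower. Between the doses, 3 of 10 measured NRF2 genes were at least 2-fold higher at the high dose and 0 lower, while 1 of 14 supply and use genes was higher and 4 lower. None of the 3 further transferases lay past 2-fold there, 0 of 2 export genes were higher and 1 lower, and 2 of 7 heme and iron genes were higher and 1 lower. These counts stand beside the shares of all genes given above for each comparison.

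By their pair of differences from control, the genes nearest to Nqo1 among 2122 measured on all arrays were the ribosomal protein gene Rpl31 (0.08 at the low dose and 1.79 at the high dose), the chemokine gene Cxcl10 (0.06 and 1.93) and Slfn5 (0.11 and 1.91). Nearest to Hmox1 were the interleukin receptor subunit gene Il2rb (-1.27 at the low dose and -1.22 at the high dose), the glutamate receptor subunit gene Grin2d (-1.26 and -1.32) and the homeobox gene Drgx (-1.26 and -1.34). The measure was the Euclidean distance over 2 differences from 3 arrays, and 15 genes lay within 0.25 of Nqo1 and 29 of Hmox1.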

How the data were processed

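Transcripts of thoracic aorta were measured on 3 oligonucleotide arrays, 1 per group. The values are linear intensities as the authors deposited them, 1 for each probe set. The sources used here do not give the software or scaling behind them. From the values, the 2% trimmed means were 500.2 to 500.4, so the arrays had been scaled to a common mean. Precision is limited by having 3 arrays.

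Of 8799 probe sets, 59 array controls were left out. The platform annotation gave 1 symbol to 7006 of the 8740 kept, several to 308 and none to 1426. Of the 7006, 6985 were found by gene ID in the RefSeq gene table of assembly GRCr8, which changed 0 symbols. Promoter sequences are RefSeq's, from GRCr8. Arrays were scaled linearly to the mean of their medians, which on the log2 scale shifted the control by 0.06, the low-dose array by 0.04 and the high-dose array by -0.09, and the floor and gene summary were as given with the results, in Python 3.11.15 with pandas 2.3.3. A value above the floor on 1 array only was set against the floor as a bound. The calculation was tested on simulated arrays with little noise and differences planted in bright genes, the same in all probe sets of a gene. Genes near the floor and probe sets that disagree were not tested in this way.

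The members, the lists and the settings were chosen with earlier results of these data known. All members were named, with up to 4 genes per further list by the size of their difference at the high dose and the 3 genes nearest to Nqo1 and to Hmox1, placeholders left out. The lists covered other glutathione transferases, glutathione supply and use, NRF2 regulators and targets, conjugate export, heme and iron handling, and cell type markers. Alternatives were other scalings, other floors and other choices among a gene's probe sets.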

Additional observations from a re-analysis of the deposited data

Results flagged for a closer look

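The array control probe sets, which take no part in the comparisons, carried a signal that differed between the arrays. For the 9 probe sets of bacterial and phage transcripts, the median ratio to the control array was 3.81 at the low dose and 28.77 at the high dose.

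Probe sets annotated to both Gsta2 and Gsta5, alpha-class transferases, are outside the rule of 1 symbol. rc_AI235747_at had scaled intensities of 299 in the control, 1245 at the low dose and 3705.1 at the high dose. K00136mRNA_at had 144 in the control and 187 at the low dose, both below the floor, and 940.2 at the high dose. Both were brightest at the high dose, and they cannot be given to either gene.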

How the results depend on the processing

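Of 189 gene differences recomputed for the members under 8 alternatives (3 scalings, 3 floors and 2 choices of probe sets), 175 stayed on their side of 2-fold and moved by no more than the SD between probe sets of the same gene, 13 moved further or crossed 2-fold, and 1 value that had been past 2-fold changed sign, Gstm1 between the doses, at -0.55 with its brightest probe set. Differences within 2-fold also changed sign between the doses, Gstk1 to 0.23 after quantile normalization and to 1.61 with a floor at the 5th percentile, and Hmox1 to -0.08 with that floor. Many of the 175 had little room to move. The deposited trimmed means were already 500.2 to 500.4, so the values as deposited and the common trimmed mean are nearly the same setting. Gstm7 and Mgst2 have 1 probe set, which the other floors left unchanged. The tolerance was also wide, as Nqo1 at the high dose against control counted as unmoved at 1.03, from 1.84. Of 453 values for other genes and lists, 385 held, 66 moved and 2 changed sign from past 2-fold, both of Cbr1, at 0.32 with the floor at the 5th or 25th percentile.

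With a floor at the 5th percentile the count of members at least 2-fold higher at the low dose against control was 0 of 10, beside 852 of 4414 genes. That of members lower between the doses was 1 of 10, beside 1026 of 4504 genes. At the 25th percentile these counts were 1 and 1 of 9, beside 595 of 3333 and 789 of 3329 genes. The median of the members at the high dose against control was then 1.62. At the 55th percentile the first count was 1 of 7, beside 268 of 1859 genes. Without less specific probe sets 2 members were left against control and 3 between the doses. The medians were then -1.63 at the high dose and -1.39 at the low dose. At the high dose 0 members were higher and 2 lower, beside 351 and 479 of 1913 genes. At the low dose 0 were higher, beside 326 of 2053 genes. Between the doses 1 was higher and 0 lower, beside 304 and 419 of 1890 genes. Fewer or more probe sets entering is how these alternatives are built. The value of Mgst2, which has 1 bright probe set, cannot change under them. No change of scaling moved a count of members by more than 1.5 times.

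No paired analysis was possible because each group had 1 array, and for the same reason no replicate was left out. Values near the floor have no order, which limits Gclc, the dimmer probe sets of Hmox1 and Gss and the control values of Gstm2 and Gsta4, among others.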
